A study of Mus musculus with 4 samples.

Results

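Cluster 1 is the group of spots that carries the number 1 in the authors' deposited cell type tables for 4 mouse brain sections measured by spatial transcriptomics. Its members were chosen by that number alone, and 2920 of 14809 spots (19.7%) carry it. A spot is a small barcoded area that can hold several cells of different types, or part of one. For each spot the authors gave the fraction assigned to each of 67 cell types, of which 47 are glutamatergic, 11 GABAergic and 9 non-neuronal. These fractions are called shares here and are printed in percent of a spot.

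The study exposed wild-type C57 mice to chronic social defeat stress, in which repeated defeat by an aggressive mouse leaves some animals socially avoidant and others not. A social interaction test sorted the stressed mice into susceptible and resilient. The 4 sections are sagittal, with 1 section for each group: a susceptible mouse given ketamine intraperitoneally at 10 mg/kg, a susceptible mouse, a resilient mouse and a control mouse. The labels do not say what the control mouse went through in place of defeat, nor the age of the animals. All mice other than the ketamine-treated one received saline, and brains were sampled 7 days after ketamine. The series title sets the question in myelin repair after ketamine.

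Cluster 1 held 501 spots of the ketamine-treated section, 605 of the susceptible section, 885 of the resilient section and 929 of the control section. With 1 section a group there is no test between groups, and spots are not replicates of a condition. Percentages of spots carry exact Clopper-Pearson 95% intervals, which cover counting error only and leave out any difference between mice, slides and cutting planes. Mean shares carry no interval. Treatment, mouse, section and the plane of the cut cannot be told apart in any comparison below.

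Oligodendrocytes wrap axons in myelin and arise from oligodendrocyte precursor cells. Astrocytes support synapses, clear transmitter and contact blood vessels. Parvalbumin (Pvalb) interneurons are fast-spiking inhibitory cells, and their axons can be myelinated. The retrosplenial cortex lies along the midline and borders the corpus callosum, a large tract of myelinated axons. The type names in the tables are cortical, hippocampal and non-neuronal, and none names a thalamic, midbrain, hindbrain or cerebellar neuron. A neuronal share in such tissue would therefore carry the name of a cortical or hippocampal type, and whether this happened in cluster 1 was not tested.

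The label given to the cluster, oligodendrocyte, astrocyte and Pvalb spots, was only partly matched by the tables. Oligodendrocytes (Oligo) or astrocytes (Astro) had the highest mean share in each section. L2_IT_RSPv, a layer 2 intratelencephalic excitatory type named for the ventral retrosplenial cortex, ranked the third in each section, ahead of Pvalb, which ranked the fourth. The 4 types summed to 72.3% of the mean spot in the ketamine-treated section, 71.2% in the susceptible, 74.7% in the resilient section and 81.8% in the control section. In the spots of all other clusters the same sum was 39.2%, 38.5%, 36.5% and 43.7% in that order of sections. A high sum was not particular to cluster 1. In cluster 7 Oligo alone had a mean share of 70.4%, 72.1%, 71.6% and 70.1%, and cluster 11 shared 90.4% of its mean composition with cluster 1. The cluster is therefore called by its number. Since the clustering may rest on the same profiles as the shares, a contrast of cluster 1 with other clusters is a description.

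Cluster 1 took a smaller part of the ketamine-treated and susceptible sections than of the resilient and control sections. It was 14.4% (95% interval 13.3 to 15.6%) of the ketamine-treated section and 17.6% (16.3 to 18.9%) of the susceptible section. It was 21.3% (20.1 to 22.6%) of the resilient section and 24.9% (23.5 to 26.3%) of the control section. No 2 of these 4 intervals overlapped. It was the largest of the 17 clusters in the resilient and control sections and the second largest in the ketamine-treated and susceptible sections. Cluster 11, the most like it in composition, did not follow this order of sizes. Cluster 11 was 4.86% of the ketamine-treated, 2.09% of the susceptible, 5.70% of the resilient and 2.76% of the control section. The size differences of cluster 1 thus depend on where the clustering divides these 2 clusters.

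Most cluster 1 spots mixed non-neuronal with neuronal types. Spots that held both non-neuronal and neuronal types were 53.9% of the cluster in the ketamine-treated section, 56.9% in the susceptible, 59.2% in the resilient section and 58.3% in the control section. Spots with non-neuronal types alone were 25.7%, 23.5%, 29.2% and 32.0% of the cluster in that order. Spots with neuronal types alone were more frequent in the ketamine-treated section, at 17.96% (14.7 to 21.6%), and in the susceptible section, at 17.02% (14.1 to 20.3%). They were 10.8% (8.88 to 13.1%) in the resilient section and 8.72% (6.98 to 10.7%) in the control section. Spots called unknown, with no type at all, were 2.40%, 2.64%, 0.791% and 0.969% of the cluster in the same order.

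**Figure D1:**
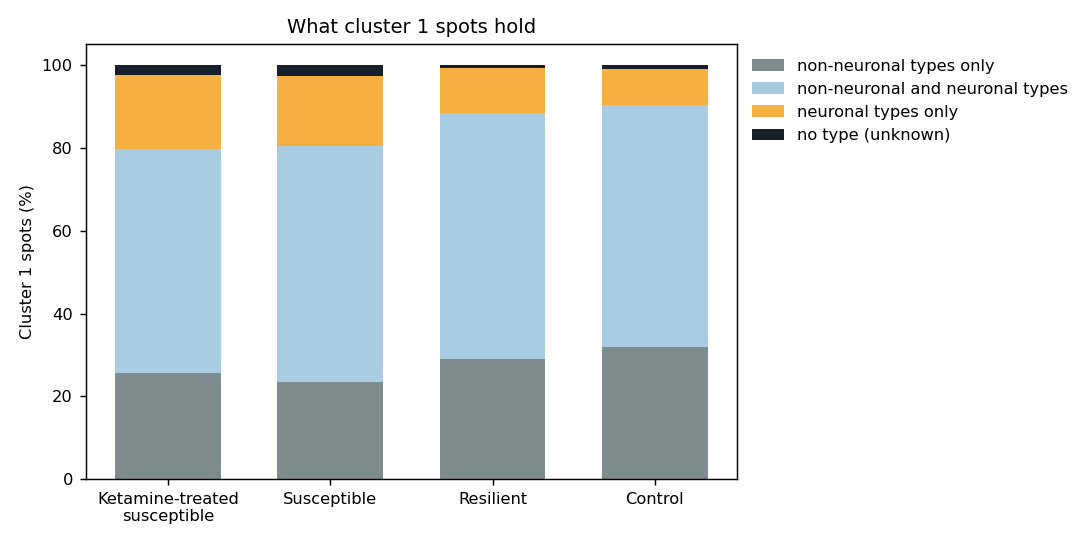
Percent of cluster 1 spots (vertical axis) that held non-neuronal types only, both kinds, neuronal types only, or no type, as stacked bars for each section. The segment for neuronal types only is taller in the ketamine-treated (17.96%) and susceptible (17.02%) sections than in the resilient (10.8%) and control (8.72%) sections.

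Oligo was kept in fewer cluster 1 spots of both susceptible mice than of the resilient and control mice. It was held by 46.5% (42.1 to 51.0%) of cluster 1 spots in the ketamine-treated section and 53.9% (49.8 to 57.9%) in the susceptible section. It was held by 66.8% (63.6 to 69.9%) in the resilient section and 66.3% (63.2 to 69.3%) in the control section. Mean Oligo shares over all cluster 1 spots followed the same split, at 21.6% in the ketamine-treated, 25.3% in the susceptible, 31.6% in the resilient section and 32.6% in the control section. Where Oligo was held, its mean share was nearly level, at 46.3% of a spot in the ketamine-treated, 46.9% in the susceptible, 47.3% in the resilient section and 49.1% in the control section. The sections thus differed mainly in how many spots held Oligo, and little in how much of a spot it took. Spots made of Oligo alone numbered 24, 28, 50 and 68 in the same order of sections. OPC, the precursor type, was kept in 6, 6, 12 and 5 cluster 1 spots, too few to order the sections. The Oligo split was not the same outside cluster 1. There the mean Oligo share was 11.2% in the ketamine-treated, 11.4% in the susceptible, 11.8% in the resilient section and 18.9% in the control section. The resilient section thus lay near the ketamine-treated and susceptible sections there, with the control section above them. The split was not particular to cluster 1, however. Cluster 15, which shared 71.0% of its mean composition with cluster 1, had mean Oligo shares of 24.3%, 25.6%, 34.7% and 40.4% in that order of sections. These rest on 30, 29, 79 and 76 spots.

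Astro was held by 56.9% (52.4 to 61.3%) of cluster 1 spots in the ketamine-treated section and 50.2% (46.2 to 54.3%) in the susceptible section. The resilient section had it in 53.2% (49.9 to 56.5%) of spots and the control section in 60.4% (57.2 to 63.5%). The control interval overlapped that of the ketamine-treated section alone, and the other 3 overlapped one another. Its mean share was 27.9%, 23.5%, 22.6% and 27.1% in the same order. In the ketamine-treated section Astro, not Oligo, had the highest mean share and also led the most spots, 29.3% against 25.3% for Oligo. In the other sections Oligo led more spots than Astro did.

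Micro, the microglia that act as immune cells of the brain, were held by 3.19%, 4.30%, 3.05% and 3.34% of cluster 1 spots, with overlapping intervals. Endothelial cells (Endo), which line vessels, were held by 2.40% (1.24 to 4.15%) in the ketamine-treated section and 2.64% (1.52 to 4.26%) in the susceptible section. They were held by 4.75% (3.44 to 6.36%) in the resilient section and 1.72% (0.988 to 2.78%) in the control section. Only the resilient and control intervals for Endo did not overlap.

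Excitatory types of the retrosplenial and cingulate cortex were the main neuronal part of cluster 1. At least 1 of the 4 such types was held by 47.3% of its spots in the ketamine-treated, 46.6% in the susceptible, 48.7% in the resilient section and 47.0% in the control section. The level total hid unequal members. L2_IT_RSPv was held by 36.7% (32.5 to 41.1%) in the ketamine-treated section and 38.8% (34.9 to 42.9%) in the susceptible section. It was held by 29.0% (26.1 to 32.2%) in the resilient section and 37.1% (34.0 to 40.3%) in the control section. The resilient section was the low one, and the other 3 overlapped.

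L5_PT_RSP_ACA, a layer 5 pyramidal tract type named for the retrosplenial and anterior cingulate areas, ran the other way. It was held by 24.4% (21.6 to 27.4%) of cluster 1 spots in the resilient section. It was held by 12.4% (9.62 to 15.6%) in the ketamine-treated, 10.1% (7.80 to 12.8%) in the susceptible section and 10.0% (8.16 to 12.1%) in the control section. The resilient section stood above the other 3. The smallest kept share in cluster 1 was also lowest there, at 10.5%. It was 12.03% in the ketamine-treated, 11.6% in the susceptible section and 11.8% in the control section. Whether the deposited values had a fixed floor is not given. Cluster 1 spots held 2.60 types on average in the resilient section, against 2.29, 2.36 and 2.36 in the ketamine-treated, susceptible and control sections. The mean share of L5_PT_RSP_ACA was 6.82% in the resilient section and 2.68% in the control section. Where the type was held, its mean share was 27.9% and 26.8% of a spot. The part of the lower smallest kept share in this difference was not tested.

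L2_IT_RSP_ACA, the related layer 2 type, was scarce, at 2.00%, 1.32%, 2.60% and 4.95% of cluster 1 spots in the order ketamine-treated, susceptible, resilient, control. NP_SUB, a near-projecting type of the subiculum, was held by 6.59%, 6.45%, 5.76% and 3.77%. CR, the Cajal-Retzius type of the cortical surface, was held by 7.39% (5.25 to 10.0%) and 10.7% (8.39 to 13.5%) in the ketamine-treated and susceptible sections. In the resilient and control sections CR was held by 4.63% (3.34 to 6.23%) and 2.58% (1.66 to 3.82%). Excitatory types of other cortical areas and of the hippocampus were rare in cluster 1. The 21 remaining cortical types took a mean share of 2.07%, 1.85%, 1.66% and 1.21%, against 14.0%, 13.3%, 15.1% and 15.9% in the other clusters. Among them the layer 5 type L5_PPP went the other way in each section. Its mean share was 0.894%, 0.650%, 0.757% and 0.648% in cluster 1, against 0.198%, 0.113%, 0.170% and 0.242% in the other clusters. The 5 excitatory hippocampal types were kept in 0%, 0.826%, 0.452% and 0.215% of cluster 1 spots. By a limit of 3 counts, the 0 of 501 spots in the ketamine-treated section allows a percentage of up to 0.599%.

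Pvalb was the leading inhibitory type and varied more between sections than either glial type in relative terms. It was held by 15.4% (12.3 to 18.8%) of cluster 1 spots in the ketamine-treated section and 14.0% (11.4 to 17.1%) in the susceptible section. The resilient section had it in 29.4% (26.4 to 32.5%) of spots and the control section in 21.3% (18.7 to 24.1%). The ketamine-treated interval overlapped those of the susceptible and control sections, which did not overlap each other. The resilient interval stood above all others. Its mean shares were 5.39%, 5.00%, 9.44% and 7.25% in the same order. With holding limited to the 2 highest types of a spot, the percentages were 11.8%, 9.59%, 19.7% and 14.6%. This setting does not level the number of types per spot. Spots with 1 type or called unknown were 24.2%, 19.3%, 15.1% and 18.9% of the cluster. Cluster 1 held 33.5% of all the Pvalb share of the ketamine-treated section, 29.7% of the susceptible, 58.6% of the resilient and 46.5% of the control section.

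Other inhibitory types were held by fewer spots. Sst_Chodl, the type of long-range projecting somatostatin neurons, was held by 7.98% (5.76 to 10.7%) and 7.27% (5.33 to 9.64%) of cluster 1 spots in the ketamine-treated and susceptible sections. In the resilient and control sections Sst_Chodl was held by 3.05% (2.02 to 4.41%) and 3.01% (2.01 to 4.33%). Meis2 was held by 8.60% (6.49 to 11.1%) in the susceptible section, above the 2.99% (1.69 to 4.89%), 0.678% (0.249 to 1.47%) and 2.48% (1.58 to 3.69%) of the ketamine-treated, resilient and control sections. Ndnf_HPF, a type named for the hippocampal formation, was near level at 5.19%, 4.63%, 5.31% and 5.17%. Some inhibitory type was held by 29.7% of cluster 1 spots in the ketamine-treated, 33.7% in the susceptible, 38.9% in the resilient section and 32.0% in the control section.

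**Figure D2:**
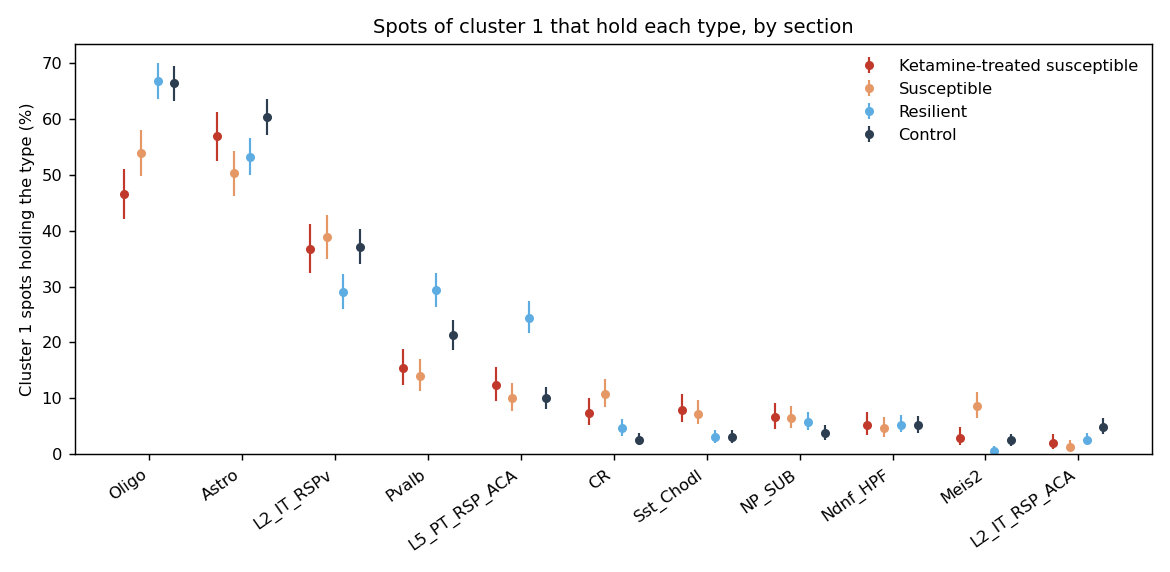
Percent of cluster 1 spots that held each cell type (vertical axis) by section, with exact 95% Clopper-Pearson intervals as bars. Oligo is lower in the ketamine-treated (46.5%) and susceptible (53.9%) sections, while Pvalb (29.4%) and L5_PT_RSP_ACA (24.4%) are highest in the resilient section.

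Of the 67 types, 55 were kept in at least 1 cluster 1 spot and 12 in none, and 27 were kept in all 4 sections. Types with a mean of at least 1% of cluster 1 in any section numbered 14. The number of different combinations of types in a spot was 197, 230, 293 and 216 in the ketamine-treated, susceptible, resilient and control sections. Astro with Oligo and nothing else was the most frequent combination in the susceptible (53 spots), resilient (100 spots) and control (122 spots) sections. In the ketamine-treated section Astro alone came first with 42 spots, followed by Astro with L2_IT_RSPv (34 spots) and Astro with Oligo (33 spots).

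Astro and Oligo were the pair most often kept in the same spot in each section, whatever else the spot held. They shared 127 spots (25.3% of the cluster) in the ketamine-treated, 160 (26.4%) in the susceptible, 295 (33.3%) in the resilient and 352 (37.9%) in the control section. These counts were close to the product of the 2 types' own percentages, with observed over expected ratios of 0.958, 0.977, 0.938 and 0.946. Shares of a spot sum to 1, which lowers such ratios for abundant types.

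Pvalb and L5_PT_RSP_ACA shared spots more often than that product in each section. The observed over expected ratio was 3.04 in the ketamine-treated section (29 spots), 3.50 in the susceptible (30 spots), 2.38 in the resilient (151 spots) and 3.13 in the control section (62 spots). Of the cluster 1 spots with L5_PT_RSP_ACA, 46.8%, 49.2%, 69.9% and 66.7% also held Pvalb. Of those with Pvalb, 37.7%, 35.3%, 58.1% and 31.3% also held L5_PT_RSP_ACA. Across cluster 1 spots, Spearman's rho between both shares was 0.317 (n = 501), 0.326 (n = 605), 0.495 (n = 885) and 0.357 (n = 929). The pair was not particular to cluster 1, since the ratio in the other clusters was 3.40, 3.83, 2.84 and 2.16.

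Oligo shared spots with Pvalb somewhat less often than the product, with ratios of 0.810 in the ketamine-treated, 0.764 in the susceptible, 0.887 in the resilient and 0.868 in the control section. The ratio for L2_IT_RSPv with Oligo was 0.935, 0.892, 1.01 and 1.01 in the same order, while in the other clusters it was 1.35, 1.49, 1.87 and 1.25. In the ketamine-treated section, Pvalb was held by 12.4% of cluster 1 spots with Oligo and 17.9% of those without. The same percentages were 10.7% and 17.9% in the susceptible, 26.1% and 36.1% in the resilient, and 18.5% and 26.8% in the control section.

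**Figure D3:**
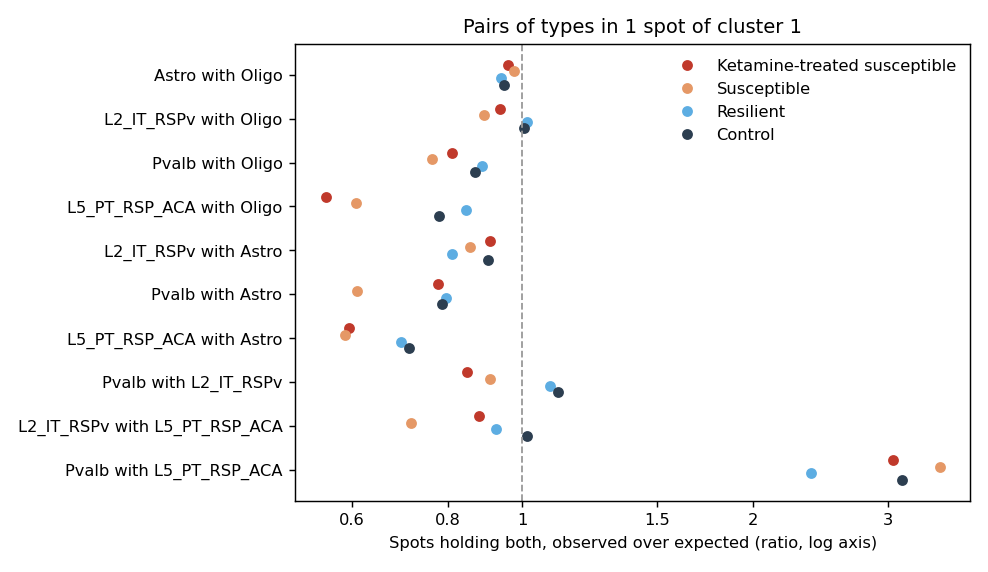
Observed over expected number of cluster 1 spots that held both types of a pair (horizontal log axis, ratio), with 1 point per section and a dashed line at 1. Pvalb with L5_PT_RSP_ACA lies between 2.38 and 3.50 in the 4 sections, while Astro with Oligo lies between 0.938 and 0.977.

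The susceptible section was set against the control section to ask what went with susceptibility to defeat stress. Oligo was held by 12.4 percentage points fewer cluster 1 spots in the susceptible section, a difference of −12.4 with a 95% counting interval (Newcombe) of −17.4 to −7.41. Astro differed by −10.1 points (−15.2 to −5.05), Pvalb by −7.26 points (−11.0 to −3.35) and L2_IT_RSPv by 1.71 points (−3.23 to 6.69). Both glial types and Pvalb were thus in fewer spots of the susceptible section, while the interval for L2_IT_RSPv includes 0. Among the 13 types whose mean reached 1% in 1 of these sections or both, 5 (38.5%) differed by 1.5-fold or more, against 45.5% of the types in the other clusters. With a minimum mean of 0.5%, 8 types passed. CR (4.01% in the susceptible section and 0.874% in the control section), Meis2 (2.55% and 0.764%), NP_SUB (2.56% and 1.31%) and Sst_Chodl (2.62% and 1.42%) were higher in mean share. L2_IT_RSP_ACA was lower (0.365% and 1.84%). For NP_SUB the intervals of the percent of spots holding it overlapped between the sections. In the other clusters the susceptible over control ratio of means was 3.47 for CR, 1.61 for Meis2, 1.60 for NP_SUB and 2.77 for Sst_Chodl. These types were thus higher outside cluster 1 as well, while L2_IT_RSP_ACA was near level there (0.960). Oligo was lower outside cluster 1 too, with mean shares of 11.4% in the susceptible section and 18.9% in the control section. The 45.5% past this fold in the other clusters stands for 10 of 22 types, so the 2 percentages were near each other.

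The Oligo difference between these sections changed when spots were matched by their place in the authors' t-SNE embedding. When each susceptible spot was set against its 10 nearest control spots of cluster 1, the difference was 0.876 points, so its direction turned, and the Pvalb difference was −0.562. The L2_IT_RSPv difference was 11.4 points on the same spots. What the embedding was built from is not given in the sources used here, and it may itself hold the Oligo signal.

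The resilient section was set against the control section to ask what went with resilience. Cluster 1 of the resilient section had about as many spots with Oligo, fewer with Astro and L2_IT_RSPv, and more with Pvalb. Oligo was held by nearly equal percentages, a difference of 0.472 points (−3.87 to 4.80). Outside cluster 1 its mean share was lower in the resilient section, at 11.8% against 18.9% in the control section. Astro differed by −7.17 points (−11.7 to −2.61), L2_IT_RSPv by −8.10 points (−12.4 to −3.77) and Pvalb by 8.07 points (4.06 to 12.04). With t-SNE neighbours the Pvalb difference was 3.02 and the Astro difference −1.64. Both kept their direction and were smaller among those spots. Of 13 types, 5 (38.5%) passed 1.5-fold, against 59.1% in the other clusters, and 1 passed with a minimum mean of 2%. L5_PT_RSP_ACA (6.82% in the resilient section and 2.68% in the control section), CR (1.75% and 0.874%) and the vascular types Endo (1.57% and 0.615%) and Peri, the pericytes (1.34% and 0.811%), were higher. L2_IT_RSP_ACA was lower (0.733% and 1.84%). For CR, Peri and L2_IT_RSP_ACA the intervals of the percent of spots holding the type overlapped between the sections. Outside cluster 1 the resilient over control ratio of means was 1.56 for L5_PT_RSP_ACA, 3.16 for CR and 0.474 for L2_IT_RSP_ACA, in the same directions. There it was 1.10 for Endo and 0.736 for Peri.

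The susceptible section was set against the resilient section to compare the outcomes of the same stress. Cluster 1 of the susceptible section had fewer spots with Oligo and Pvalb and more with L2_IT_RSPv. Oligo differed by −12.9 points (−17.9 to −7.84) and Pvalb by −15.3 points (−19.3 to −11.2). L2_IT_RSPv differed by 9.80 points (4.91 to 14.7) and Astro by −2.97 points (−8.12 to 2.19). With t-SNE neighbours the Oligo, Pvalb and L2_IT_RSPv differences were −5.49, −3.02 and 16.5 points, and that of Astro −8.30 points. All 4 kept their direction among those spots, the first 2 at a smaller size. The Astro interval includes 0, and its difference turned above 0 in other settings. It was 2.86 points with the 2 highest types of a spot, 4.19 points as percent of spots led and 0.836 points as mean share. Of 13 types, 8 (61.5%) passed 1.5-fold, against 45.8% in the other clusters, and 13 passed with a minimum mean of 0.5%. Meis2 (2.55% in the susceptible section and 0.154% in the resilient section), CR (4.01% and 1.75%), Sst_Chodl (2.62% and 1.16%), L2_IT_RSPv (17.4% and 11.04%) and NP_SUB (2.56% and 1.69%) were higher. L5_PT_RSP_ACA (3.20% and 6.82%), Endo (0.784% and 1.57%) and Pvalb (5.00% and 9.44%) were lower. For NP_SUB and Endo the intervals of the percent of spots holding the type overlapped between the sections. Outside cluster 1 the susceptible over resilient ratio of means was 5.98 for Meis2 and 1.78 for L2_IT_RSPv. It was near level for CR (1.10) and NP_SUB (0.995) there. Endo (0.768) and L5_PT_RSP_ACA (0.857) were lower there too, while Sst_Chodl (0.420) and Pvalb (1.40) went the other way.

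The ketamine-treated section was set against the susceptible section to ask what went with ketamine in susceptible mice. Cluster 1 of the ketamine-treated section had fewer spots with Oligo and more with Astro. Of 12 types, 1 (8.33%) passed 1.5-fold, against 12.5% in the other clusters, and it was Meis2 (0.726% in the ketamine-treated section and 2.55% in the susceptible section). Outside cluster 1 Meis2 took 1.97% and 2.44% in that order, a ratio of 0.808. With a minimum mean of 0.5% in place of 1%, 7 types passed. Oligo was lower by a difference of −7.38 points (−13.2 to −1.46) and Astro higher by 6.64 points (0.732 to 12.5). With t-SNE neighbours the Oligo difference was −4.49 and the Astro difference 9.26, and among spots at or above 8 on t-SNE 1 they were −2.25 and 9.95. L2_IT_RSPv differed by −2.12 points (−7.81 to 3.63) and Pvalb by 1.32 points (−2.85 to 5.58), both with intervals that include 0, and Pvalb by −0.978 points with t-SNE neighbours. Oligo in cluster 1 of the ketamine-treated section was thus no nearer to the control level than in the susceptible section.

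The ketamine-treated section was also set against the control section, which it shares with the comparisons above. Cluster 1 of the ketamine-treated section had fewer spots with Oligo and Pvalb, while the intervals for Astro and L2_IT_RSPv include 0. Oligo differed by −19.8 points (−25.0 to −14.4), and by −4.87 points with t-SNE neighbours. Pvalb differed by −5.94 points (−9.93 to −1.70), Astro by −3.50 points (−8.86 to 1.82) and L2_IT_RSPv by −0.410 points (−5.59 to 4.87). With t-SNE neighbours Pvalb differed by −0.539 and L2_IT_RSPv by 5.55 points. The Oligo and Pvalb differences were thus smaller among those spots, and that of L2_IT_RSPv turned from below to above 0. Of 11 types, 6 (54.5%) passed 1.5-fold, against 38.1% in the other clusters. CR (2.86% in the ketamine-treated section and 0.874% in the control section), Sst_Chodl (3.01% and 1.42%), NP_SUB (2.25% and 1.31%) and L5_PT_RSP_ACA (4.34% and 2.68%) were higher. L2_IT_RSP_ACA (0.693% and 1.84%) and Oligo (21.6% and 32.6%) were lower. For NP_SUB and L5_PT_RSP_ACA the intervals of the percent of spots holding the type overlapped between the sections. Outside cluster 1 the ketamine-treated over control ratio of means was 2.62 for CR, 4.04 for Sst_Chodl, 1.33 for NP_SUB and 1.31 for L5_PT_RSP_ACA. It was 0.592 for Oligo and, in the other direction, 1.28 for L2_IT_RSP_ACA.

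**Figure D4:**
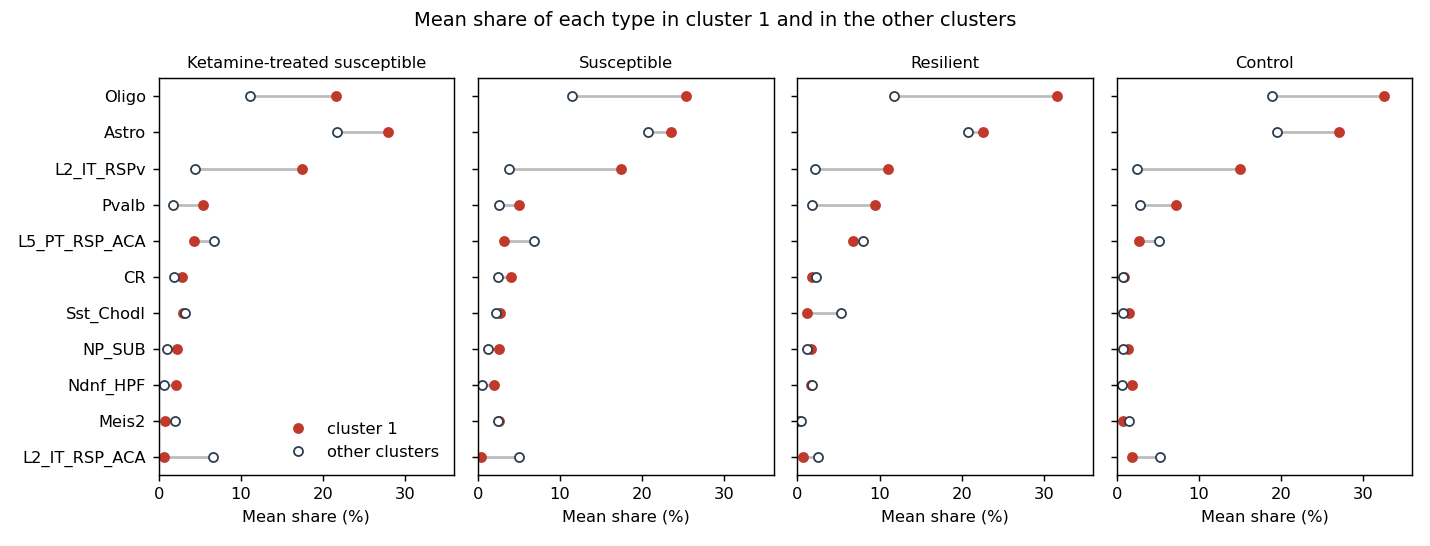
Mean share of each cell type (horizontal axis, percent of a spot) in cluster 1 (filled points) and in all other clusters (open points), with 1 panel per section. L2_IT_RSPv, Pvalb and Oligo are higher in cluster 1 in each panel, and L2_IT_RSP_ACA and L5_PT_RSP_ACA are lower.

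The embedding gave a further view of how cluster 1 spots vary among themselves. Cluster 1 covered an Oligo-rich side and an Oligo-poor side, divided here at a t-SNE 1 coordinate of 8, a value chosen after seeing the plot. The low side held 44.3% (39.9 to 48.8%) of cluster 1 spots in the ketamine-treated section and 40.8% (36.9 to 44.9%) in the susceptible section. It held 15.03% (12.7 to 17.6%) in the resilient section and 21.5% (18.9 to 24.3%) in the control section. On the low side Oligo was held by 20.7%, 31.6%, 28.6% and 39.0% of spots in that order of sections. On the high side it was held by 67.0%, 69.3%, 73.5% and 73.8%. The susceptible and control sections differed by −7.42 points on the low side and −4.53 on the high side, and the ketamine-treated and control sections by −18.3 and −6.77. Since the sides were chosen on a plot coloured by Oligo, these values are a description and settle nothing about the Oligo differences above.

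The inhibitory types differed between the sides. Pvalb was held there by 9.01%, 7.69%, 0.752% and 6% of spots in the ketamine-treated, susceptible, resilient and control sections, against 20.4%, 18.4%, 34.4% and 25.5% on the high side. Sst_Chodl was held by 14.4%, 13.8%, 12.8% and 11% on the low side, against 2.87%, 2.79%, 1.33% and 0.823% on the high side. Pvalb thus lay mostly on the high side and Sst_Chodl on the low side. L2_IT_RSPv was held by 35.6%, 37.2%, 17.3% and 21.5% of spots on the low side, against 37.6%, 39.9%, 31.1% and 41.4% on the high side. The Pvalb difference between the susceptible and resilient sections was −16.0 points on the high side and 6.94 on the low side, where 1 resilient spot held Pvalb. It was −15.3 over all cluster 1 spots and −3.02 with t-SNE neighbours. Spot positions in the tissue were not analysed here, so whether the sides are different regions was not tested.

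**Figure D5:**
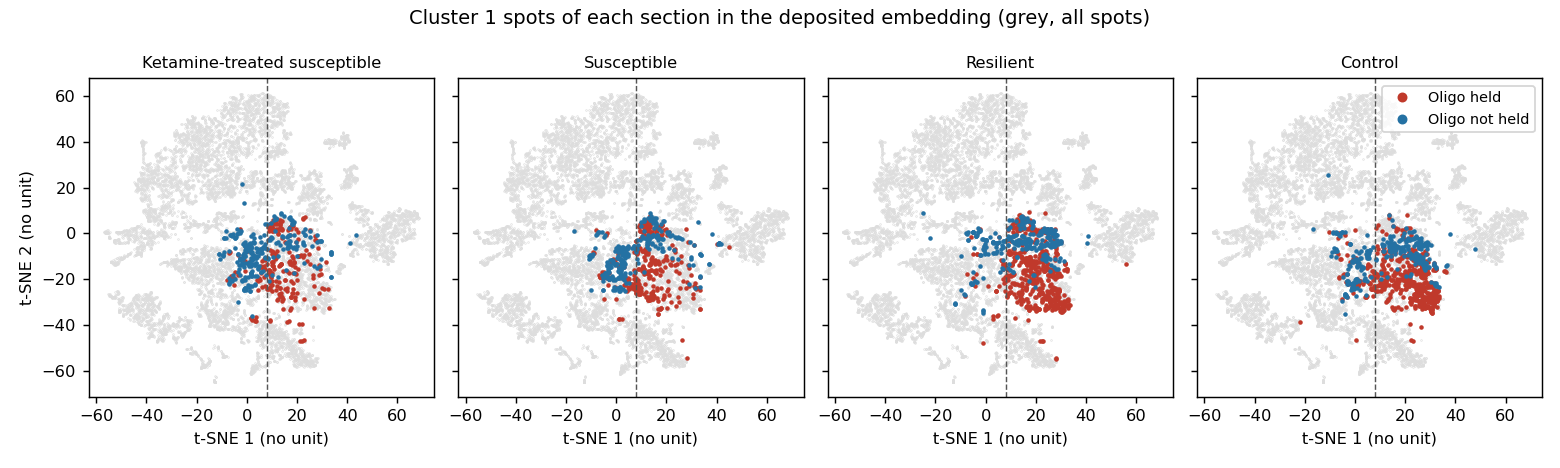
Authors' t-SNE coordinates (no unit) of cluster 1 spots in each section, coloured by whether Oligo was held, over all spots in grey, with a dashed line at t-SNE 1 = 8. Left of the line lie 44.3% of cluster 1 spots in the ketamine-treated section and 40.8% in the susceptible section, against 15.03% in the resilient section and 21.5% in the control section.

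The Oligo share of a whole section depends on both the size of cluster 1 and its content. The mean Oligo share of the section was 8.39 points lower in the susceptible than in the control section, a difference of −8.39, and cluster 1 made up −3.66 of it. Of that, −2.12 came from the smaller cluster and −1.54 from the lower Oligo share within it. In the ketamine-treated against the control section, cluster 1 made up −5.00 of −9.60 points, with −2.83 from size and −2.16 from shares within. In the resilient against the control section it made up −1.38 of −6.25 points, with −1.15 from size and −0.223 from shares within. In the ketamine-treated against the susceptible section it made up −1.34 points, where the whole section differed by −1.21. Cluster 1 held 24.5% of all Oligo share of the ketamine-treated section, 32.0% of the susceptible, 42.0% of the resilient and 36.4% of the control section.

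Cluster 1 was not the only cluster with oligodendrocytes. In cluster 7 the mean Oligo share was 70.4%, 72.1%, 71.6% and 70.1% in the ketamine-treated, susceptible, resilient and control sections, without the spread seen in cluster 1. Pvalb took at most 0.233% of the mean spot there. Cluster 11 was the most like cluster 1, sharing 90.4% of its mean composition, and its Oligo share was 19.7%, 25.2%, 25.9% and 38.7% in the same order. Cluster 17, led by Pvalb, had 0, 11, 2 and 45 spots in that order and is too small outside the control section to set beside cluster 1.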

How the data were processed

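Spatial transcriptomics was run on barcoded slides carrying mouse brain sections. The deposited values are fractions of a spot per cell type, which sum to 1 per spot, and cluster numbers. The authors used the mm10 genome build, per the submitters' processing notes. How reads were aligned, spots clustered and fractions estimated, and from which reference cells, is not given in the sources used here. No kept fraction in cluster 1 was below 10.5% of a spot, so smaller shares appear as 0. Gene counts were not analysed here, so depth is unknown. The deposited t-SNE coordinates, a score with no unit, were joined to the sections by their barcodes. Between 2735 and 3304 barcodes recur in each pair of sections, and spots were kept apart by section. Cluster numbers were taken as 1 clustering of all sections.

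Members and lists were chosen with earlier results of these data known. Computed here, in Python 3.11.15 with pandas 2.3.3, numpy 2.4.6, scipy 1.17.1 and matplotlib 3.10.9, were the mean share of each type, the percent of spots holding it (share above 0) or led by it, and their differences between sections. Percentages have Clopper-Pearson 95% intervals, differences Newcombe intervals. No p-value was computed. A type listed in no spot carries a limit of 3 counts. Named were the 4 marker types, OPC, Micro, Endo, the 8 highest types per section, up to 10 types per direction past 1.5-fold among those with a mean of at least 1%, and pairs among the 10 most frequent. The section split uses the mean of the 2 sections as weights. The computation was tested on simulated data. Alternatives were other definitions of holding, other size rules and, chosen after seeing the data, t-SNE neighbours and the t-SNE 1 side at or above 8.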

Additional observations from a re-analysis of the deposited data

How the results depend on the processing

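Of 308 alternative values for 49 results, 234 moved by less than their counting interval or, for counts, by less than 1.5 times, 73 moved by more, and 1 changed the sign of a difference whose interval excludes 0. Among the other values, 17 changed the sign of a difference whose interval includes 0. The order below is ketamine-treated, susceptible, resilient, control. The 1 sign change with an interval that excludes 0 was Oligo in the susceptible over the control section, at 0.876 points with t-SNE neighbours. Restricting to spots at or above 8 on t-SNE 1 gave Oligo differences of −4.53 (susceptible over control), −4.26 (susceptible over resilient) and −6.77 (ketamine-treated over control). With t-SNE neighbours, the susceptible over control differences were 11.4 for L2_IT_RSPv and −0.562 for Pvalb. The resilient over control ones were −1.64 for Astro and 3.02 for Pvalb. The susceptible over resilient ones were −5.49 for Oligo, −8.30 for Astro, 16.5 for L2_IT_RSPv and −3.02 for Pvalb. The ketamine-treated over control ones were −4.87 for Oligo, 5.55 for L2_IT_RSPv and −0.539 for Pvalb. Counted among spots with 2 or more types, Oligo was held by 55.0%, 61.1%, 72.0% and 72.8%, and L2_IT_RSPv by 42.6%, 44.5%, 32.5% and 43.7%. On those spots Astro was held by 63.9%, 54.9% and 66.5% in the ketamine-treated, susceptible and control sections, and Pvalb by 20.3%, 34.1% and 25.9% in the ketamine-treated, resilient and control sections. With the 2 highest types of a spot alone, Oligo was held by 37.1%, 45.5%, 58.8% and 57.8%, and Astro by 49.5%, 43.0%, 40.1% and 49.7%. L2_IT_RSPv was then held by 32.1%, 32.7%, 22.4% and 28.8%, and Pvalb by 11.8%, 9.59%, 19.7% and 14.6%. That setting gave susceptible over resilient differences of 2.86 for Astro and −10.1 for Pvalb, and Astro with Oligo ratios of 0.804, 0.821, 0.825 and 0.809. A floor of 20% on kept shares gave 48.9% for Astro and 25.4% for Pvalb in the resilient section. As mean shares, the Oligo differences were −7.27 (susceptible over control), −6.30 (susceptible over resilient) and −11.0 (ketamine-treated over control). Those of Pvalb were −2.25 (susceptible over control), 2.19 (resilient over control) and −4.44 (susceptible over resilient), and that of Astro −3.60 (susceptible over control). As percent of spots led, the susceptible over control differences were −0.687 for Astro and −1.44 for Pvalb, and the susceptible over resilient ones 4.19 for Astro and −6.06 for Pvalb. The ketamine-treated over control ones were −14.2 for Oligo, 2.54 for Astro and −0.578 for Pvalb. Over clusters with at least 20 spots in each section, cluster 1 was 16.7%, 19.9% and 28.9% of the ketamine-treated, susceptible and control sections. With a minimum mean share of 0.5%, 8 types passed 1.5-fold in susceptible over control, 13 in susceptible over resilient and 7 in ketamine-treated over susceptible. With a minimum of 2%, 1 type passed in resilient over control. Beyond the different quantity each setting counts, the cause was not tested. No paired analysis was possible because each group has 1 section. Replicate error, sequencing depth and the deconvolution method stay unknown, and values rest on 501 to 929 spots per section.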

Other observations

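A small number of cluster 1 spots held none of Oligo, Astro, L2_IT_RSPv or Pvalb. They were 47 spots (9.38%, 6.97 to 12.3%) in the ketamine-treated and 52 spots (8.60%, 6.49 to 11.1%) in the susceptible section. They were 39 spots (4.41%, 3.15 to 5.98%) in the resilient and 42 spots (4.52%, 3.28 to 6.06%) in the control section. Of these, 12, 16, 7 and 9 spots in that order were called unknown and held no type. Sst_Chodl was held by 10 of the 47 spots in the ketamine-treated, 5 of 52 in the susceptible, 9 of 39 in the resilient and 10 of 42 in the control section. CR was held by 7, 11, 5 and 2 of them. L5_PT_RSP_ACA was held by 8, 8 and 10 of them in the ketamine-treated, susceptible and resilient sections.

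Within cluster 1, the own section's part of a spot's neighbours in the embedding was above that section's part of the cluster. Of the 15 nearest neighbours of a ketamine-treated spot, 25.003% were of the ketamine-treated section, which holds 17.2% of cluster 1. For susceptible spots the values were 34.7% and 20.7%, for resilient spots 42.6% and 30.3%, and for control spots 49.6% and 31.8%. The neighbours of ketamine-treated spots were also 27.1% susceptible, 26.9% resilient and 21.0% control, so the susceptible section gave more of them than their own section did. No source used here gives a batch, and the part of section in these neighbours was not tested.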
